A study of Mus musculus with 6 samples.

Results

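The 10 genes described here are the receptors for the EGF and FGF families, *Egfr*, *Erbb2*, *Erbb3*, *Erbb4*, *Fgfr1*, *Fgfr2*, *Fgfr3* and *Fgfr4*, and the feedback inhibitors *Spry2* and *Spry4*. They were chosen by name, with earlier results of these data known, and looked up in the mouse GENCODE vM21 annotation. All 10 were found among the 50686 gene identifiers of the count files. RNASeq had been run on 4 primary cultures of mouse neural stem cells (NSC). The NSC group was 2 cultures from wild-type embryos, and the NSC Bmi1Over group was 2 cultures from STOPFloxBmi1;NestinCre embryos, in which Cre driven by the *Nestin* promoter removes a stop sequence in front of a *Bmi1* transgene, Bmi1 being a core protein of Polycomb repressive complex 1. According to the methods of the study, the embryos were at E16.5, the 2 cultures of a group were biologically independent, and the growth medium contained both EGF and FGF. Every level below was therefore measured in cells grown with both factors. H3K27me3 ChIPSeq, which maps the repressive histone mark laid down by Polycomb repressive complex 2, gave 1 list of enriched regions (peaks) per genotype. The glioma-initiating cultures of the study were not analysed here.

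EGF and FGF receptors are tyrosine kinases at the cell surface. When a ligand pairs 2 receptor molecules, they recruit adaptors that switch on RAS and, through RAF and MEK, the kinase ERK. ERK in turn raises the transcription of its own inhibitors, among them the Sprouty proteins, which closes a negative feedback loop. EGF and FGF are the mitogens on which neural stem cells are routinely grown. *Fgfr3* is known as a radial glial and astrocytic gene of the developing brain.

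The targeted gene was examined first. *Bmi1* stood at 133 and 124 CPM (the count of reads scaled to library size by the TMM method) in the NSC libraries and at 119 and 113 in the libraries labelled NSC Bmi1Over. The groups did not overlap, but in the opposite direction to the label, with a log2 fold change of −0.15 (SE 0.12, edgeR adjusted p = 0.463) that lay between −0.30 and −0.10 over all 14 alternative settings. The count files thus hold no excess of *Bmi1* reads under that label. NSC Bmi1Over below means the libraries so labelled, and each direction rests on the labels alone. Whether transcripts of the transgene align within the annotated *Bmi1* exons was not tested.

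The libraries held from 18112100 to 61353076 reads on genes, the deepest and the shallowest both being NSC Bmi1Over. Unmapped reads made up 11.2% and 13.7% in the wild-type libraries against 16.2% and 17.6% in those labelled NSC Bmi1Over, and the share of reads on the 10 most abundant genes 5.23% and 6.48% against 8.57% and 10.1%. The part of these library differences in the results below was not tested. All 10 neural stem cell markers examined were tested and none was called different by edgeR. At an unadjusted p under 0.05, 0 of 10 were higher and 3 of 10 lower, against 17% and 7.22% of all genes tested. Without overlap between the groups, 1 was higher and 6 were lower, against 29% and 30% of all genes tested. Their median log2 fold change was −0.27. Genes named below for an unadjusted p were singled out after their values were seen unless they are among the 10 receptor and Sprouty genes. The summed level of the 10 neural stem cell markers was 6100 and 6761 CPM in NSC and 6596 and 6779 CPM in NSC Bmi1Over. The 8 mesenchymal markers summed to between 2.17 and 3.77 CPM, the 8 microglial markers to between 1.33 and 3.17 CPM, the 8 endothelial markers to between 5.77 and 10.1 CPM and the 6 erythroid markers to at most 0.602 CPM, with the 4 globin genes of the last list at 0 in every library. Among all other marker genes examined, *Syt1* (neurons) and *Pmp22* (Schwann cells) were called higher, and *Aldh1l1* (astrocytes) and *Cnp* (oligodendrocytes) lower. The neuronal list leaned the other way from *Syt1*, with 6 of 8 tested log2 fold changes below 0 and a median of −0.18, and the oligodendrocyte list the other way from *Cnp*, with 5 of 8 above 0 and a median of 0.09. The Schwann and neural crest list went with *Pmp22*, with all 4 tested genes higher without overlap, against 29% of all genes tested, and a median of 0.68. In bulk samples such as these, fewer cells of a type and less RNA per cell cannot be told apart.

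Levels of different genes were compared as CPM per kilobase of annotated exon. The most abundant transcript was *Spry2*, at 86.5 to 97.7 CPM per kb over the 4 libraries, above every other gene of the set in each of them. *Spry4* (45.2 to 73.4), *Egfr* (50.8 to 61.0) and *Fgfr1* (37.3 to 63.9) followed, with overlapping ranges. *Spry4* was above *Fgfr1* in each library, whereas *Egfr* was the highest of these 3 genes in both NSC libraries and the lowest of them in both NSC Bmi1Over libraries. *Fgfr3* ranged from 14.4 to 35.1 CPM per kb, by this measure below *Fgfr1* in every library. The order was close in NSC replicate 1, at 35.1 against 37.3, and is not settled there for a reason given with *Fgfr3* below. The remaining receptors were scarcer. *Erbb2* stood at 4.65 to 7.20 CPM per kb, followed by *Fgfr2* at 2.10 to 3.50 and *Erbb4* at 1.25 to 2.58, the last 2 overlapping. *Fgfr4* at 0.0716 to 0.291 and *Erbb3* at 0.0197 to 0.0902 CPM per kb were close to absent, and their ranges overlapped too. Most receptor mRNA by this measure came from *Egfr* in the EGF receptor family, and from *Fgfr1* and *Fgfr3* among the FGF receptors.

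**Figure D1:**
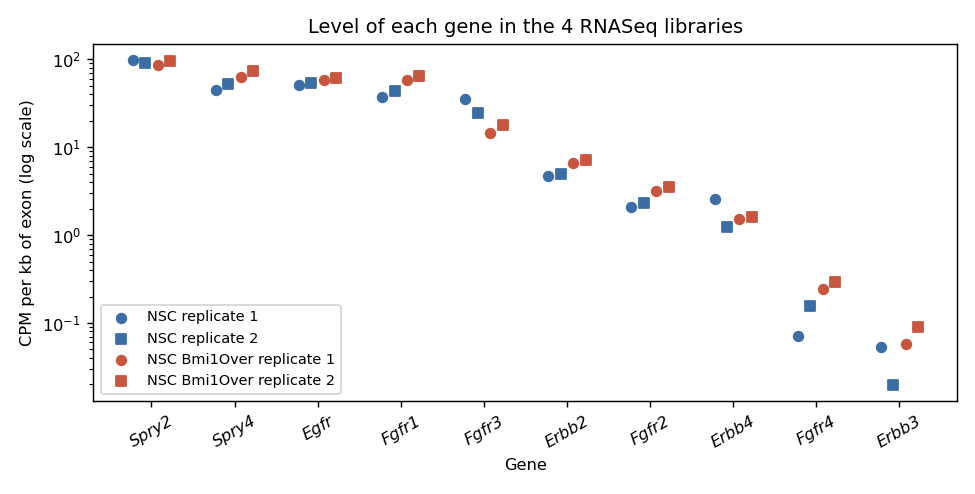
Level of the 10 genes in CPM per kb of exon (vertical log axis), 1 point per library, NSC in blue and NSC Bmi1Over in red, genes ordered by their mean over the 4 libraries. Levels span from 92.8 CPM per kb on average for *Spry2* to 0.0549 for *Erbb3*, and *Fgfr3* is the abundant receptor whose blue points both lie above its red points.

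*Egfr* (ENSMUSG00000020122, chromosome 11 of mm10 from 16752203 to 16918158, plus strand) encodes the receptor for EGF, TGF-alpha, amphiregulin and HB-EGF. It was read 18147 and 15354 times in NSC and 11410 and 39467 times in NSC Bmi1Over, which is 575 and 607 against 652 and 691 CPM. Both NSC Bmi1Over libraries lay above both NSC libraries. The difference was nevertheless small, from 591 ± 22.8 to 671 ± 27.5 CPM (mean ± SD, n = 2 each), with a log2 fold change of 0.18 (95% interval −0.18 to 0.55, edgeR adjusted p = 0.497), which was 0.034 with libraries scaled by their totals alone. *Egfr* supplied from 91.1% to 93.7% of the reads of the 4 EGF receptor genes, and from 87.3% to 89.7% of their summed CPM per kb.

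*Erbb2* (chromosome 11, 98412470 to 98437716, plus strand) encodes the partner that binds no ligand itself and pairs with the other members of its family. Its levels were 24.2 and 25.6 CPM in NSC and 34.4 and 37.5 CPM in NSC Bmi1Over, without overlap. The log2 fold change was 0.53 (SE 0.13, 95% interval 0.24 to 0.82), with an edgeR adjusted p of 0.0653 that missed the threshold of 0.05. Per kilobase, *Egfr* exceeded *Erbb2* by 10.9 times in both NSC libraries and by 8.70 and 8.47 times in the NSC Bmi1Over libraries.

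*Erbb4* (chromosome 1, 68032186 to 69108059, minus strand), a neuregulin receptor, differed widely between the NSC cultures. It reached 31.9 CPM in NSC replicate 1 but 15.5 in replicate 2, with 18.6 and 19.7 CPM in NSC Bmi1Over lying between them. The log2 fold change of −0.31 (SE 0.28, edgeR adjusted p = 0.519) rested on NSC replicate 1. Without that library the log2 fold change became 0.31 (adjusted p = 0.900), and without NSC replicate 2 it became −0.74 (adjusted p = 0.0236).

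*Erbb3* (chromosome 10, 128567523 to 128589652, minus strand), the other neuregulin receptor of the family and a gene of Schwann cells and the oligodendrocyte lineage, had 10 and 3 reads in NSC and 6 and 31 in NSC Bmi1Over. These counts were below the minimum required for testing. Other markers of the Schwann and neural crest list were detected, *Pmp22* among them at 66.4 and 95.3 CPM in NSC and 140 and 157 CPM in NSC Bmi1Over, whereas 4 of the 8 genes on that list, *Erbb3* included, stayed under 1 CPM in every library. The list summed to 164 and 222 CPM in NSC and to 289 and 309 CPM in NSC Bmi1Over.

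*Fgfr1* (ENSMUSG00000031565, chromosome 8, 25513654 to 25575718, plus strand) was the FGF receptor with the most reads in each library. It was read 11622 and 10875 times in NSC and 10103 and 36065 times in NSC Bmi1Over, or 368 and 430 against 577 and 631 CPM. The groups were separate, with means of 399 ± 43.8 and 604 ± 38.2 CPM (SD, n = 2 each). The log2 fold change of 0.60 (SE 0.16, 95% interval 0.22 to 0.97) had an unadjusted p of 0.00595 and an edgeR adjusted p of 0.0860. Antisense transcript *Gm16159* shares 1.66% of the *Fgfr1* exon bases, and the counting ignored strand.

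*Fgfr3* (ENSMUSG00000054252, chromosome 5, 33721674 to 33737068, plus strand) differed in the opposite direction. Its 7919 and 4399 reads in NSC and 1805 and 7260 reads in NSC Bmi1Over corresponded to 251 and 174 against 103 and 127 CPM. Each NSC library was above each NSC Bmi1Over library, although the NSC cultures themselves lay far apart. The ratio of NSC Bmi1Over to NSC was 0.542, a log2 fold change of −0.88 (SE 0.19, 95% interval −1.32 to −0.44, unadjusted p = 0.00155). The edgeR adjusted p of 0.0569 was the lowest of the set and still missed the threshold. The value depended on single libraries. Without NSC replicate 1, the higher of the pair, the log2 fold change was −0.60 (adjusted p = 0.296), without NSC replicate 2 it was −1.13 (adjusted p = 9.3e-05), without NSC Bmi1Over replicate 1 it was −0.75 (adjusted p = 0.0425), and without NSC Bmi1Over replicate 2 it was −1.04 (adjusted p = 0.0571). A further transcript on the opposite strand, *G630022F23Rik*, shares 13.9% of the *Fgfr3* exon bases. Without strand, reads there cannot be assigned to either gene, and such ambiguous reads are left out of the counts. Levels per kilobase were divided by all exon bases, so those of *Fgfr3* may be too low.

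As *Fgfr3* is a gene of radial glia and astrocytes, the 8 astrocyte markers were examined beside it. Of these, 7 were tested, *Aldh1l1* was called lower and none higher, and 2 were lower at an unadjusted p under 0.05, against 7.22% of all genes tested. *Aldh1l1* stood at 122 and 94.2 CPM in NSC and at 66 and 53.3 CPM in NSC Bmi1Over (log2 fold change −0.86, edgeR adjusted p = 0.0440). *Aldoc*, singled out after its values were seen, stood at 113 and 82.8 against 52.4 and 59.9 CPM (log2 fold change −0.80, adjusted p = 0.0508). The groups did not overlap for 4 of the 7, with these 2 lower and 2 higher, near the 59% of all genes tested. The higher ones were the glutamate transporter *Slc1a2*, at 196 and 223 against 232 and 316 CPM (log2 fold change 0.39, adjusted p = 0.223), and the connexin *Gja1*, at 79.0 and 66.6 against 85.5 and 83.9 CPM (log2 fold change 0.22, adjusted p = 0.330). The list as a whole did not separate the groups, at a summed 529 and 483 CPM in NSC and 454 and 525 CPM in NSC Bmi1Over, and its best known member *Gfap* stayed between 0.343 and 0.770 CPM. Of the 10 neural stem cell markers, which include radial glial genes, 6 were lower and 1 was higher without overlap, as given above. *Fabp7* was among the lower ones (log2 fold change −0.42, edgeR adjusted p = 0.234), and *Slc1a3* was the higher one (0.46, adjusted p = 0.257). The part of cell composition in the *Fgfr3* difference was not tested.

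The 2 main FGF receptors were then set against each other within each library, which needs no scaling between libraries. Per kilobase of all annotated exon, *Fgfr1* exceeded *Fgfr3* by 1.06 and 1.79 times in NSC and by 4.06 and 3.60 times in NSC Bmi1Over. Given the *Fgfr3* bases shared with *G630022F23Rik*, these ratios may be too high, and the order in NSC replicate 1 is not settled. *Fgfr3* supplied 39.1% (95% Wilson interval 38.5 to 39.8) and 27.7% (27 to 28.4) of the reads of the 4 FGF receptors in NSC, against 14.4% (13.8 to 15.1) and 16.0% (15.6 to 16.3) in NSC Bmi1Over. Such intervals cover counting error only, and they were narrow beside the difference between the 2 NSC cultures. The gap of NSC replicate 2 to the nearer NSC Bmi1Over library was about the size of its gap to NSC replicate 1. With 2 libraries against 2, an exact two-sided permutation test cannot give a p below 0.333, and the share was not tested.

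**Figure D2:**
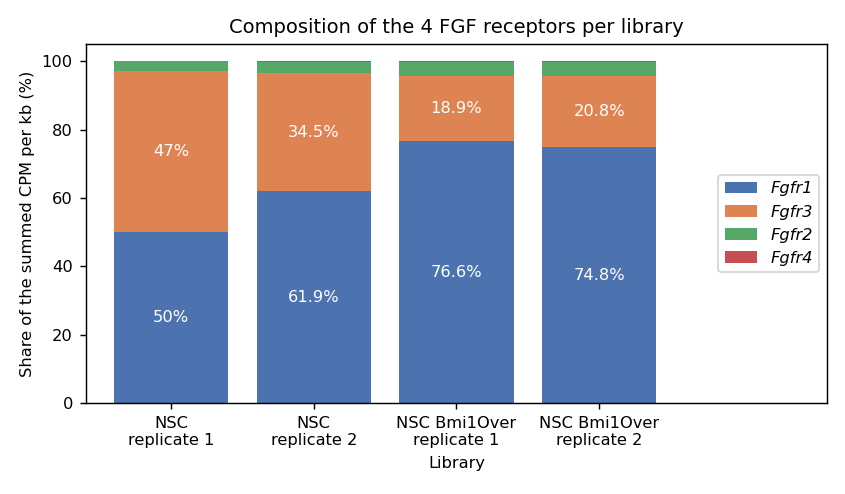
Share of each FGF receptor in the summed CPM per kb of the 4 receptors (vertical axis, percent) in each of the 4 libraries, with the *Fgfr1* and *Fgfr3* shares written in the bars. *Fgfr3* takes 47.0% and 34.5% in the NSC libraries and 18.9% and 20.8% in the NSC Bmi1Over libraries, while *Fgfr2* and *Fgfr4* stay thin in all 4. The *Fgfr3* shares may be too low, since reads in exon bases shared with another transcript were not counted.

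*Fgfr2* (chromosome 7, minus strand, 130162451 to 130266263 without 1 far transcript start) stood at 21.7 and 24.2 CPM in NSC and 32.7 and 36.1 CPM in NSC Bmi1Over. Its log2 fold change of 0.59 (SE 0.13, 95% interval 0.29 to 0.89, edgeR adjusted p = 0.0595) was close in size to that of *Fgfr1*. *Fgfr4* (chromosome 13, 55152640 to 55168759, plus strand) rested on only 8 and 14 reads in NSC and 15 and 59 in NSC Bmi1Over, at 0.254 and 0.554 against 0.857 and 1.03 CPM. The groups did not overlap, and without the NSC Bmi1Over libraries *Fgfr4* would not have passed the minimum for testing. Its log2 fold change of 1.29 was the largest of the set and also the least precise (95% interval 0.29 to 2.29, edgeR adjusted p = 0.124). It was 0.79 without NSC replicate 1 (adjusted p = 0.891) and 1.91 without NSC replicate 2 (adjusted p = 0.0644).

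The Sprouty genes encode inhibitors that ERK signalling itself induces. *Spry2* (ENSMUSG00000022114, chromosome 14, 105891947 to 105896819, minus strand) stood at 204 and 192 CPM in NSC and 180 and 198 CPM in NSC Bmi1Over. The groups overlapped and the log2 fold change was −0.06 (95% interval −0.37 to 0.24, edgeR adjusted p = 0.794), an interval that leaves room for changes of moderate size in either direction. *Spry4* (ENSMUSG00000024427, chromosome 18, 38586247 to 38601415, minus strand) stood at 215 and 252 CPM in NSC and 298 and 349 CPM in NSC Bmi1Over, without overlap. Its log2 fold change was 0.47 (95% interval 0.11 to 0.83, edgeR adjusted p = 0.122). Within each library, *Spry4* reached 0.462 and 0.578 of the *Spry2* level per kilobase in NSC, and 0.725 and 0.772 of it in NSC Bmi1Over. This ratio did not overlap between the groups.

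In total, 0 of the 9 genes tested were called by edgeR's quasi-likelihood test at an adjusted p under 0.05, where 2.15% of all 15521 genes tested were called, 2.03% higher and 0.122% lower. At an unadjusted p under 0.05, 5 of the 9 were higher (*Erbb2*, *Fgfr1*, *Fgfr2*, *Fgfr4* and *Spry4*) and 1 was lower (*Fgfr3*), against 17% and 7.22% of all genes tested. Of these, *Fgfr4* needed the NSC Bmi1Over libraries to pass the minimum for testing. The number higher fell to 2 of 10 without NSC replicate 1 and to 3 of 9 without NSC Bmi1Over replicate 2, with 1 lower in both. The groups did not overlap for 7 of the 9, 6 higher and 1 lower, against 59% of all genes tested (29% higher and 30% lower). The median log2 fold change of the 9 was 0.47, beside −0.01 over all genes tested. DESeq2's Wald test, which called 9.64% of the same genes, called 5 of the 9, namely *Erbb2*, *Fgfr1*, *Fgfr2* and *Spry4* higher and *Fgfr3* lower. The same 5 were called without NSC Bmi1Over replicate 1, a fit in which 15.6% of all genes were called and in which the remaining library of that group was assumed to vary like the others. Without NSC replicate 2, where 8.93% of all genes were called, *Erbb4* and *Fgfr3* were called lower.

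**Figure D3:**
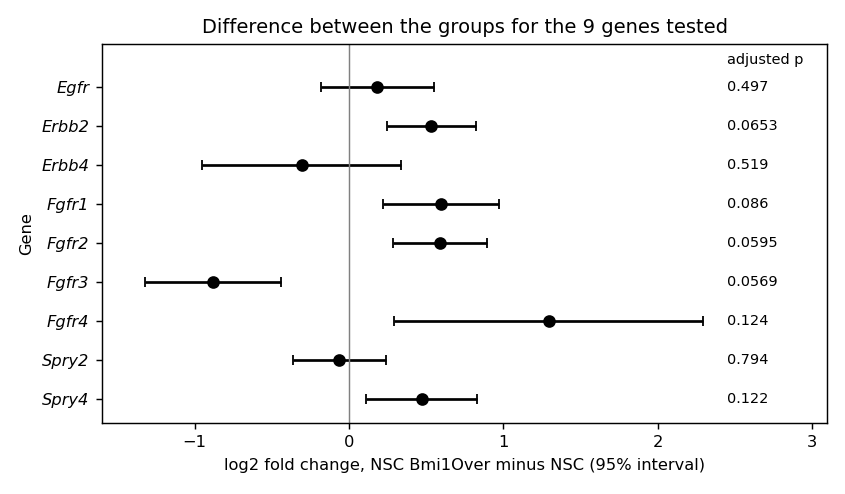
log2 fold change of NSC Bmi1Over over NSC (horizontal axis) for the 9 genes tested, with points for the edgeR estimate, bars for the 95% interval and the adjusted p at the right. The intervals of *Erbb2*, *Fgfr1*, *Fgfr2*, *Fgfr4* and *Spry4* lie above 0 and that of *Fgfr3* below it, and no adjusted p is under 0.05.

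To place the receptors in their pathway, 119 further genes were examined in 6 lists by role, of which 99 passed the minimum for testing. Of these, edgeR called 4 higher and 0 lower, against 2.03% and 0.122% of all genes tested. At an unadjusted p under 0.05, 31 were higher and 8 lower, against 17% and 7.22%, shares that also stand beside each list below. DESeq2's Wald test called 17 higher and 3 lower, where it called 9.64% of all genes. With libraries scaled by their totals alone, edgeR called 5 higher and 5 lower, where 3.46% of all genes were called. Among the EGF family ligands, 8 of 11 were tested, none was called by edgeR and 2 were higher at an unadjusted p under 0.05 (*Hbegf* and *Epgn*, the latter on 5 to 29 reads per library), a number that was 0 without NSC replicate 1 or without NSC Bmi1Over replicate 2. *Epgn* passed the minimum for testing only through the NSC Bmi1Over libraries, so its place among the higher genes was favoured by the filter. The most abundant EGF family ligands per kilobase were *Hbegf* and *Tgfa*. *Hbegf*, a membrane-anchored ligand of the EGF receptor, stood at 20.7 and 24.1 CPM in NSC and 26.5 and 36 CPM in NSC Bmi1Over (log2 fold change 0.49, edgeR adjusted p = 0.135, and 0.24 without NSC Bmi1Over replicate 2). *Tgfa* had overlapping levels of 14.0 to 20.8 CPM. Among the 22 FGF ligands, 9 were tested and none was called by edgeR. *Fgf17* and *Fgf23* rested on 6 to 49 reads per library and needed the NSC Bmi1Over libraries to pass the minimum for testing. With *Fgf1*, they were the 3 higher at an unadjusted p under 0.05. That number was 1 when any of the cultures but NSC Bmi1Over replicate 1 was left out. *Fgf1*, which can activate all FGF receptors, stood at 51.5 and 66.7 CPM in NSC and 103 and 88.9 CPM in NSC Bmi1Over (log2 fold change 0.70, adjusted p = 0.0584). *Fgf11*, whose protein stays inside the cell, overlapped between the groups at 12.9 to 36.4 CPM.

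The co-receptors and ligand carriers, mainly heparan sulphate proteoglycans that hold FGFs at the cell surface and the enzymes that build or trim their sugar chains, held 20 genes. Of these, 17 were tested, and the other 3 (*Kl*, *Klb* and *Fgfbp1*) overlapped between the groups and stayed under 1 CPM in every library. All 17 had higher levels in both NSC Bmi1Over libraries than in both NSC libraries, where 29% of all genes tested did. The lists were chosen with earlier results of these data known, so such shares are a description only. All 17 also had an unadjusted p under 0.05 in edgeR, as did 17% of all genes in that direction. That number fell to 5 of 18 without NSC replicate 1, to 8 of 17 without NSC Bmi1Over replicate 2 and to 9 of 17 when libraries were scaled by their totals alone. Their median log2 fold change was 0.63. By the adjusted p, edgeR called 2, *Sdc2* and *Gpc4*. *Sdc2*, which encodes syndecan-2, rose from 53.3 and 58.3 CPM to 106 and 114 CPM (log2 fold change 0.98, SE 0.12, edgeR adjusted p = 0.0140). *Gpc4*, which encodes glypican-4, rose from 51.6 and 63.6 CPM to 97.5 and 123 CPM (log2 fold change 0.94, SE 0.16, adjusted p = 0.0370), a call that was lost without NSC replicate 1 (adjusted p = 0.0638). The most abundant genes of the list, the endosulphatase *Sulf2* (664 and 915 against 1365 and 1671 CPM, adjusted p = 0.0651) and the syndecan *Sdc3* (611 and 708 against 833 and 961 CPM, adjusted p = 0.182), were not called by edgeR. DESeq2's Wald test called 9 of the 17, *Sulf2* (adjusted p = 3.6e-05) and *Sdc3* (adjusted p = 0.0432) among them. All 17 log2 fold changes stayed above 0 when libraries were scaled by their totals alone, with a median of 0.48, and when GC content and length were corrected for, with a median of 0.47.

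All 23 adaptors and RAS-MAPK genes were tested and none was called by edgeR, with 2 higher (*Shc1* and *Araf*) and 3 lower (*Gab1*, *Shc3* and *Nras*) at an unadjusted p under 0.05 and a median log2 fold change of −0.19. The groups did not overlap for 15 lower and 3 higher genes of the 23, against 30% and 29% of all genes tested. With libraries scaled by their totals alone, 1 was higher and 13 were lower at an unadjusted p under 0.05. The number lower was 0 without NSC replicate 1 and 7 without NSC Bmi1Over replicate 1. *Map2k1*, which encodes the kinase MEK1, was the most abundant per kilobase and overlapped between the groups at 94.5 to 124 CPM. Of 23 feedback inhibitors other than *Spry2* and *Spry4*, 22 were tested and none was called by edgeR. At an unadjusted p under 0.05, against 17% and 7.22% of all genes tested, 5 were higher and 0 lower, namely *Spry1*, *Spred3*, *Dusp4*, *Il17rd* and *Lrig1*. These counts were 4 higher and 6 lower with libraries scaled by their totals alone, and 5 higher and 4 lower with the GC and length correction. They were 2 and 0 without NSC replicate 1, and 8 and 1 without NSC Bmi1Over replicate 1. *Lrig1*, an inhibitor of EGF receptors, stood at 609 and 708 against 947 and 972 CPM (log2 fold change 0.54, adjusted p = 0.114), and *Dusp6*, the ERK phosphatase, at 334 and 319 against 449 and 372 CPM (log2 fold change 0.33, adjusted p = 0.240, and 0.19 without NSC Bmi1Over replicate 1).

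All 20 transcripts known to follow ERK activity were tested, with a median log2 fold change of −0.06. *Emp1*, encoding an epithelial membrane protein, rose from 11.5 and 10.6 CPM to 34.7 and 31.8 CPM (log2 fold change 1.58, SE 0.14, edgeR adjusted p = 0.00390). *Epha2*, encoding an ephrin receptor, rose from 3.68 and 4.07 CPM to 9.14 and 9.34 CPM (log2 fold change 1.26, SE 0.20, adjusted p = 0.0307). No gene of the list was called lower by edgeR. At an unadjusted p under 0.05, 5 were lower, against 7.22% of all genes tested, namely the immediate early genes *Egr1*, *Egr2*, *Egr3*, *Jun* and *Ier2*. The immediate early genes *Fos*, *Fosb*, *Junb* and *Ier3* of the same list overlapped between the groups. The number lower at that p fell to 2 of 20 without NSC replicate 1. DESeq2's Wald test called 3 genes of the list lower, and edgeR called 4 lower with libraries scaled by their totals alone and 5 with no filter on low counts. *Ccnd1*, which encodes cyclin D1 (826 to 1027 CPM), and *Etv5*, an ETS factor downstream of FGF (369 to 495 CPM), overlapped between the groups.

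**Figure D4:**
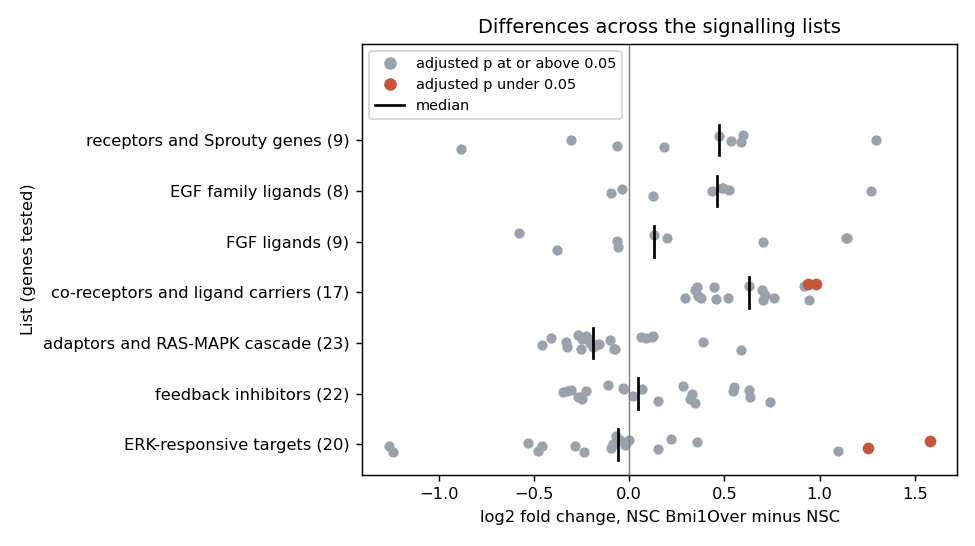
log2 fold change of NSC Bmi1Over over NSC (horizontal axis) for each gene tested in the receptor and Sprouty set and in the 6 signalling lists, with the number of genes tested in brackets, the median of each list as a black line and called genes in red. The 17 co-receptors and ligand carriers all lie to the right of 0, whereas the cascade genes centre at −0.19 and the ERK-responsive targets at −0.06. The lists were chosen with earlier results of these data known.

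H3K27me3 was then examined at the same genes. The peak lists held 12982 peaks in NSC and 6810 in NSC Bmi1Over, and with 1 list per genotype no replicate error can be given and no test was run between them. The lists also reached down to unequal fold enrichments, 3.52 in NSC and 4.03 in NSC Bmi1Over, so that a peak between these values appears in the NSC list only. Marked genes were those where any annotated transcription start site (TSS) had a peak in the 5 kb to either side. By this measure 1 of the 10 receptor and Sprouty genes, *Erbb3*, was marked in NSC and 0 of 10 in NSC Bmi1Over, against 8.86% and 4.39% of all 21938 protein-coding genes on nuclear chromosomes. With 10 genes, these shares are near the background and are given as a description.

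The *Erbb3* peak was of the minimal length of 200 bp, from 128588786 to 128588985 on chromosome 10 of mm10, in an intron 667 bp from the TSS. Its fold enrichment was 3.71 with a −log10 q of 2.11, and it was lost at a −log10 q of at least 3, at a fold of at least 5 or at a length of at least 1000 bp. *Fgfr2* had peaks inside the gene but further than 5 kb from a TSS, at 10467 bp from the nearest start in NSC and 10457 bp in NSC Bmi1Over. A further NSC peak of 359 bp (130211571 to 130211929) lay in an intron 14726 bp from the nearest start. Its fold enrichment of 3.89 was below the lowest in the NSC Bmi1Over list. The nearer NSC peak of 808 bp (130217482 to 130218289) and the NSC Bmi1Over peak of 647 bp (130217653 to 130218299) shared 637 bp of an intron, with fold enrichments of 3.85 and 4.15. This was the only interval within the 10 genes that both lists held. One annotated *Fgfr2* transcript that starts more than 1 Mb from the others was left out of these distances. The genome sequences below show the *Erbb3* peak whole and the 300 bases in the middle of the shared *Fgfr2* interval (chr7:130217822-130218121), both on the minus strand that is transcribed and 5′ to 3′, with each CG dinucleotide in capitals.
Erbb3 peak: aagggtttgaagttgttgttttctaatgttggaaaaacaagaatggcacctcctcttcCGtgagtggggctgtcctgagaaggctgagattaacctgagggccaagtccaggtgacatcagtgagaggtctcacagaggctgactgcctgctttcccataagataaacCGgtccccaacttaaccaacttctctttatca
Fgfr2 shared peak: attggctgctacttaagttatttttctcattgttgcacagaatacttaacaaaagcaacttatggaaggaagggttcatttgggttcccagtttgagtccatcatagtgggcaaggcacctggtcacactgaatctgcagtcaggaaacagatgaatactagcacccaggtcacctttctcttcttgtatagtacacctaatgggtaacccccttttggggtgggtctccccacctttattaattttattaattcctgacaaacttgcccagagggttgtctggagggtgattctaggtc
The *Erbb3* peak holds 2 CG dinucleotides in 200 bases, and the *Fgfr2* stretch holds 0 in 300 bases.

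The promoters of the 5 most abundant genes carried no peak in either list. Those of *Egfr*, *Fgfr3* and *Spry2* are shown as well, since Polycomb domains in mammals are known to centre on CG-rich promoters. Promoters and intronic peaks are unlike regions, and their CG counts are not compared. The RefSeq table of GRCm38.p6 promoters held 7 of the 10 genes, not *Fgfr1*, *Spry4* or *Erbb3*, and the sequences are the bases before the start, 5′ to 3′ along the gene, again with CG in capitals. They are chr11:16751953-16752202 on the plus strand for *Egfr*, chr5:33721474-33721673 on the plus strand for *Fgfr3*, cut where the first GENCODE transcript begins, and chr14:105896820-105897069 on the minus strand for *Spry2*.
Egfr promoter: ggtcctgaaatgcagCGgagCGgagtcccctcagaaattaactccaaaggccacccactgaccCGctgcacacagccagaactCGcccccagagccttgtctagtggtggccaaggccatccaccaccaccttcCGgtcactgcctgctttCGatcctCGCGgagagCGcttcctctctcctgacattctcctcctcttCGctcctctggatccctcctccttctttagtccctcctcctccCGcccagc
Fgfr3 promoter: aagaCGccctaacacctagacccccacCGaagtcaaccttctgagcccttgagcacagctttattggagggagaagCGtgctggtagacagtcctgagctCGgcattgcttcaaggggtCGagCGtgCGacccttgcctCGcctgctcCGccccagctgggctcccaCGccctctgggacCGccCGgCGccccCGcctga
Spry2 promoter: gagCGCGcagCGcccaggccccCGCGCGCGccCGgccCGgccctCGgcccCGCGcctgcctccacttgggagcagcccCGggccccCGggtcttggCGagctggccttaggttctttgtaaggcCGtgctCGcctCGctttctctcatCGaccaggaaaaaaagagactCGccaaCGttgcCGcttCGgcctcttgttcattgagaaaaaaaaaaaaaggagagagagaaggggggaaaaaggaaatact
The 250 bases of *Egfr* hold 11 CG dinucleotides and those of *Spry2* 23, and the 200 bases of *Fgfr3* hold 14. Over all 32851 promoters in the table the median was 6 in 250 bases, and 35.6% and 13.3% of them held at least as many as *Egfr* and *Spry2*. For the full 250 bases of this *Fgfr3* start the count was 19, reached by 19.7% of promoters. The scarcer *Erbb2*, *Fgfr4* and *Erbb4*, also without a promoter peak, held 16, 15 and 12. The low number at the listed *Fgfr2* start (chr7:130266809-130267058), 2 CG dinucleotides, was reached or exceeded by 81.2%. That window lies upstream of the *Fgfr2* span given above, which ends at 130266263. GENCODE gives *Fgfr2* 14 starts, whose promoters this number does not describe.

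*Erbb4*, whose gene spans 1075874 bp, contained 6 NSC peaks of 200 to 390 bp, all in introns and the nearest 67435 bp from a TSS, with fold enrichments of 3.52 to 3.96. No NSC Bmi1Over peak lay in *Erbb4*, and each of the 6 was below the lowest fold enrichment in that list. The other 7 genes contained no peak in either list. In NSC their nearest peak was 30.8 kb from a TSS at *Erbb2*, between 201 and 522 kb at *Fgfr4*, *Fgfr1*, *Fgfr3*, *Egfr* and *Spry4*, and 1420 kb at *Spry2*. For *Fgfr3*, the gene with the lower level in the libraries labelled NSC Bmi1Over, the nearest peak to a TSS was 277 kb away in NSC and 286 kb away in NSC Bmi1Over.

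The other genes of the pathway were counted in the same way, without a test. Of the 22 FGF ligand genes, 11 had a promoter peak in NSC and 7 had one in NSC Bmi1Over, and of the 11 EGF family ligand genes 4 (*Tgfa*, *Nrg1*, *Nrg3* and *Nrg4*) and 3 (*Nrg1*, *Nrg3* and *Nrg4*). Of the 23 feedback inhibitors none was marked in either list. The adaptors and RAS-MAPK genes had 0 marked of 23 in NSC and 1 in NSC Bmi1Over (*Rps6ka3*), the co-receptors and ligand carriers 1 of 20 (*Hs6st2*) and 0, and the ERK-responsive targets 2 of 20 (*Egr2* and *Emp1*) and 1 (*Emp1*), all of these named after the peaks were seen. Of the FGF ligand genes, 16 of 22 stayed under 1 CPM in every library, against 1 of the 10 receptor and Sprouty genes.

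**Figure D5:**
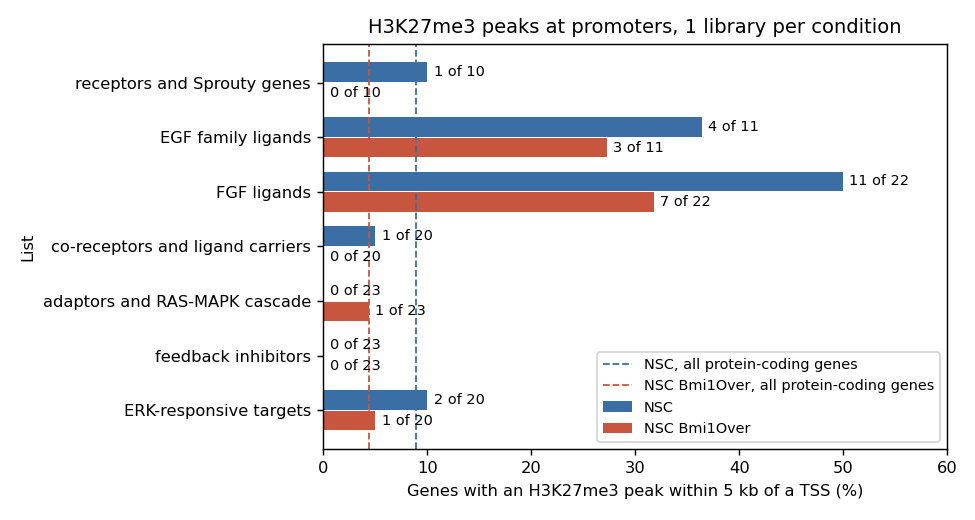
Percent of the genes of each list that have a peak in the 5 kb around a TSS (horizontal axis) in the NSC (blue) and NSC Bmi1Over (red) peak lists, with counts beside the bars and dashed lines for all protein-coding genes at 8.86% and 4.39%. FGF ligands reach 50% and 31.8%, and the receptor and Sprouty set 1 of 10 and 0 of 10.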

How the data were processed

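RNASeq and H3K27me3 ChIPSeq were performed by the authors on mouse NSC and NSC Bmi1Over cultures. Per the labels and the methods of the study, reads were trimmed with Trim Galore and aligned to mm10 (GRCm38) with STAR or, for ChIPSeq, Bowtie2 2.3.4. The deposited RNASeq files hold raw counts of reads per gene as STAR writes them, and the unstranded column was used, since both strand columns held near equal shares. The deposited peak files hold MACS2 broad peaks, from which the authors' fold enrichment (a ratio) and −log10 q were taken as given, and the MACS2 score column the authors deposited was not used. The methods state that 1 ChIP replicate per condition was kept after quality checks, so replicates could not be compared.

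Counts were filtered (filterByExpr), scaled by TMM and tested with edgeR 4.0.16 (R 4.3.3) by the quasi-likelihood F-test, with Benjamini-Hochberg adjustment over all 15521 genes tested and a threshold of 0.05. Intervals are 95% intervals of that fit. The script was tested on simulated data. Libraries held 18112100 to 61353076 reads on genes, and among the 10 genes counting error was large for *Erbb3* and *Fgfr4*. DESeq2 1.42.0, other scalings and filters, a replicate block, thinning and leaving out each culture were the alternatives, with a GC and length correction added after the data were seen. Named genes were the 10 genes, *Bmi1*, and in each list the called genes and the 2 with the highest CPM per kb, some of which are not reported here. These genes and lists were chosen with earlier results of these data known. Peaks are in mm10 and sequences were read from GRCm38.p6, where all 8 promoter windows matched the RefSeq table.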

Additional observations from a re-analysis of the deposited data

How the results depend on the processing

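The count of called receptor and Sprouty genes, 0 of 9 with edgeR, was 0 under DESeq2's size factors, a minimum of 1 CPM, the summed strand columns, protein-coding genes only and thinning. It was 5 with DESeq2's Wald test, 1 with library size alone (*Fgfr3*), 6 with no filter on low counts, and 1 (*Fgfr3*) with the GC and length correction. All genes called went from 334 to 1496, 537, 2356 and 456 in these settings, and pathway genes called from 4 to 20, 10, 26 and 5. Library size alone moved the median of all genes to −0.17 and the share of higher calls from 94.3% to 64.4%. With the replicate number as a block, 5 of the 9, 36 pathway genes and 3459 of all genes were called. The numbers join only 2 pairs (correlation of their deviations 0.235 over 15521 genes), so pairing was not established. Leaving out a culture gave 0 to 5 called of the set, 176 to 2546 of all genes and 3 to 18 pathway genes.

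Among the genes named by rule and tested, which leaves out *Erbb3*, the direction of the log2 fold change turned in no setting other than those leaving out a culture, over which it ranged from −0.74 to 0.31 for *Erbb4* (above 0 without NSC replicate 1), −0.13 to 0.0014 for *Spry2*, −0.35 to 0.20 for *Tgfa* (0.19 without NSC Bmi1Over replicate 1), −1.07 to 0.021 for *Fgf11*, −0.28 to 0.10 for *Map2k1* (0.052 without NSC replicate 1), −0.25 to 0.064 for *Ccnd1* and −0.0013 to 0.41 for *Etv5*. In the lists as a whole, library size alone also took the number of log2 fold changes above 0 from 6 to 2 of the 23 RAS-MAPK genes, from 12 to 9 of the 22 feedback inhibitors and from 5 to 4 of the 9 FGF ligands. The GC and length correction took the RAS-MAPK genes to 4. The cause was not tested. The *Erbb3* promoter peak in NSC, 1 of 10, became 0 of 10 at a −log10 q of at least 3, a fold of at least 5 or a length of at least 1000 bp. Depth limits *Erbb3* and *Fgfr4*, and 2 cultures per group limit all differences.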
